A study of Danio rerio with 19 samples.

Results

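The comparison described here set heat-shocked against unshocked wild-type zebrafish larvae at 3 days post-fertilization (dpf), using the control RNA of 6 of the 19 two-color miRNA arrays of the series. The 3 heat-shocked samples were AB wild-type larvae kept for 30 min at 37°C and sampled 6 h later, and they had served as controls of the heat-inducible hsp70:HRAS line (HS-Ras). The 3 unshocked samples were AB wild-type larvae without heat shock, the controls of the zic:HRAS line (zic:Ras), which drives the oncogene in brain cells. Each sample was a pool of 15 whole larvae, and the pools of different replicates came from different parents. None of the control larvae carried a transgene. Control RNA was labeled with Hy5 and read in the red channel, while the green channel (Hy3) of the same arrays held the RNA of the Ras larvae. The arrays were chosen by their labels alone, and the study did not pair these 2 sets of controls. All 6 arrays lay on 1 slide, the heat-shocked ones in row 1, together with unshocked replicate 1, and unshocked replicates 2 and 3 in row 2. Heat shock, the time since it, the parents of the pools and the array series to which each control belonged cannot be told apart.

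MicroRNAs are short RNAs cut from hairpin precursors by Drosha and Dicer. One arm of the hairpin, the guide, is usually loaded into an Argonaute protein and pairs through its seed with messenger RNAs, which lowers their translation and stability. The other arm, the passenger, is mostly degraded. At this stage zebrafish larvae are hatching and their tissues are maturing. let-7 rises with developmental age, miR-430 clears maternal messages early and then fades, miR-1, miR-133 and miR-206 mark muscle, and miR-34 is known as a target of p53. A heat shock sets off the response of the chaperone genes through Hsf1. The array probed both arms of known hairpins, called left (5′) and right (3′).

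The sequences below are those the called probes were built to detect, read as the reverse complement of the probes in the deposited files, 5′ to 3′. They are shown because several of the called miRNAs share a seed, and because some are the arm usually degraded. Capitals mark bases 2 to 8 counted from the 5′ end of the probed sequence, which is the seed where that end is the natural one. For passenger arms this end could not be checked. The first 5 belong to the let-7 family, the next 6 to other miRNAs that were higher in heat-shocked larvae, and the rest to miRNAs that were lower in them, with miR-34, which was not called, given beside its relatives.
let-7a left arm: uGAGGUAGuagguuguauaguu
let-7b left arm: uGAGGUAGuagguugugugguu
let-7e left arm: uGAGGUAGuagauugaauaguu
let-7g left arm: uGAGGUAGuaguuuguauaguu
let-7h left arm: uGAGGUAGuaaguuguguuguu
miR-730 left arm: uCCUCAUUgugcaugcugugug
miR-365-3 left arm: gAGGGACUuuuaggggcagcug
miR-150 right arm: cGCUGGACgggguuuggggggg
miR-193b right arm: aACUGGCCcgcaaagucccgcu
miR-219 right arm: gGAGUUGUggauggacaucaug
miR-128-2 left arm: cAGGGGGCcguuucuacuguca
miR-34b left arm: uAGGCAGUguuguuagcugauu
miR-34c left arm: aGGCAGUGcaguuaguugauua
miR-34 left arm: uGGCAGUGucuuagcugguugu
miR-210 right arm: cUGUGCGUgugacagcggcuaa
miR-101b right arm: uACAGUACuaugauaacugaag
miR-133a left arm: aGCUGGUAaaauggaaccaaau
miR-145 right arm: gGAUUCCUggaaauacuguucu
miR-30d left arm: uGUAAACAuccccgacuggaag
miR-30e left arm: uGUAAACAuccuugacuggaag
miR-137 right arm: uUAUUGCUuaagaauacgcgua
miR-430c-2 left arm: cACUUCAAacaggagcauugau
miR-301b right arm: cAGUGCAAuaguauugucauug
The let-7 sequences all have the seed GAGGUAG and differ outside it, and both miR-30 sequences have the seed GUAAACA. All 3 miR-34 sequences hold the letters GGCAGUG.

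Of 546 probes for known zebrafish miRNAs, those well above background on at least 2 of the 3 arrays of either group were tested. This left out 92 probes, and those tested held 322 different sequences. A probe was called when limma's two-sided test gave a Benjamini-Hochberg adjusted p below 0.05 and the linear fold exceeded 1.2. The calls numbered 35 (7.71% of the tested probes), of which 16 were higher in heat-shocked larvae (3.52%) and 19 were lower (4.19%). They stood for 13 and 16 sequences. All 35 were well above background on all 6 arrays, and in all 35 the heat-shocked and unshocked values did not overlap, as was the case for 28.2% of all tested probes.

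On each array 80.7% to 82.1% of the spots of known probes were well above background, and guide arms of muscle (miR-1 and miR-206), brain (miR-124), liver (miR-122) and red blood cells (miR-451) were so on all 6. Most differences were small. The median difference over all tested probes was 0.01 on the log2 scale, the median unsigned difference was 0.12, and only miR-730 exceeded 1. The smallest adjusted p was 0.0103, so that no probe was called at 0.01. Arrays of 1 group correlated at 0.9959 to 0.9982 across known probes and arrays of different groups at 0.9928 to 0.9962, where probes are not independent replicates. Different probes of 1 sequence gave differences with a pooled SD of 0.06 over 80 sequences.

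**Figure D1:**
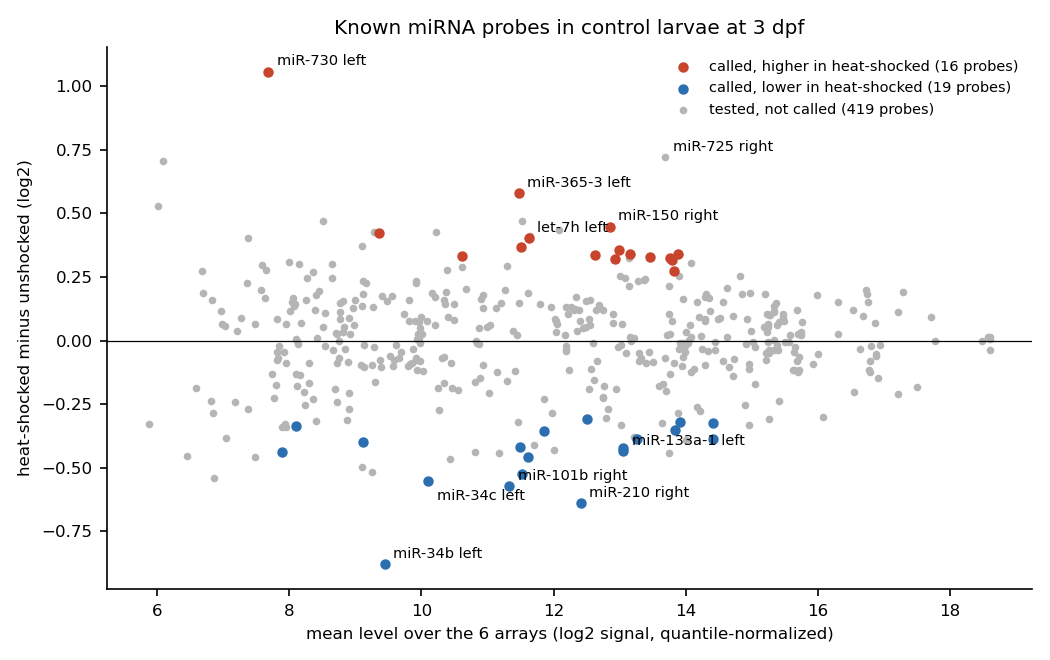
Log2 difference between heat-shocked and unshocked control larvae (vertical axis) against the mean log2 level over the 6 arrays (horizontal axis), 1 point for each known probe tested. The 16 probes called higher lie at levels of 7.68 to 13.9 and the 19 called lower at 7.89 to 14.4. All tested probes run from 5.88 to 18.6, and miR-730 and miR-34b lie farthest from 0.

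The number of calls fell when single arrays were left out. With fewer arrays the test also has less power, and this was not told apart from the part of the array left out. Without heat-shocked replicate 3 or without unshocked replicate 3 limma called 0 probes (84 and 83 had an unadjusted p below 0.05, against 115 with all arrays). Without heat-shocked replicate 2 there were 1 higher and 1 lower, without heat-shocked replicate 1 there were 2 higher and 8 lower, and without unshocked replicate 2 there were 1 higher and 8 lower. Without unshocked replicate 1 there were 13 higher and 15 lower. Scaling counted as well: quantile normalization over known and predicted probes together called 0 (69 with an unadjusted p below 0.05), and scaling to the 75th percentile 2 higher and 11 lower.

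**Figure D2:**
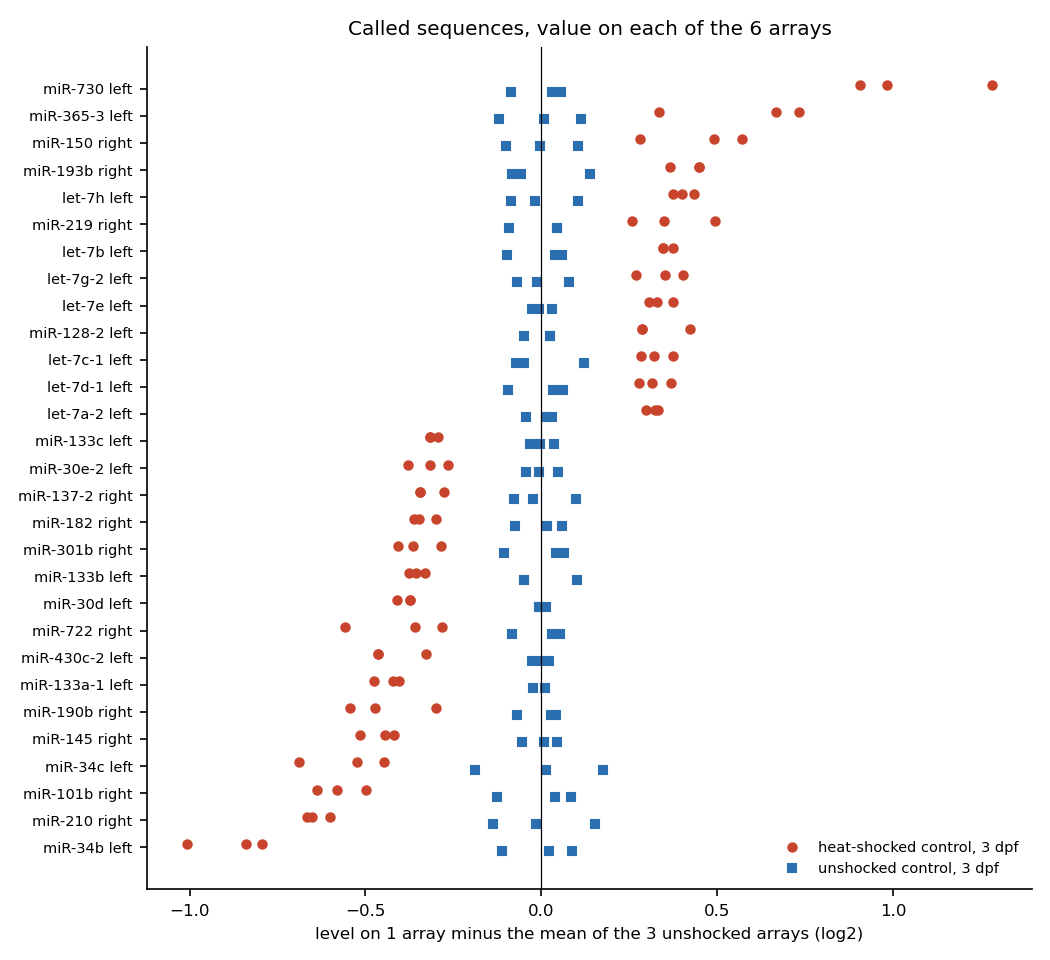
Level on each array minus the mean of the 3 unshocked arrays (log2, horizontal axis) for the 29 called sequences, 1 probe each, with heat-shocked larvae as circles above and unshocked larvae as squares below on each row. In every row the circles lie to 1 side of the squares, with miR-730 at the top and miR-34b at the bottom.

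miR-730, a miRNA described in fish, had the largest difference. Its left arm had log2 levels of 8.06, 8.44 and 8.14 in heat-shocked larvae, against 7.07, 7.18 and 7.21 in unshocked larvae. All 3 heat-shocked pools were above all 3 unshocked pools, and the difference of 1.06 ± 0.11 (SE, adjusted p = 0.0103, limma) is 2.08-fold on the linear scale. The size depended on the signal used. It was 0.25, a fold below the minimum of 1.2, when the red foreground was corrected with normexp, without dye normalization. That correction added an offset of 50 to every signal before log2, and the part of the offset was not tested. The right arm of miR-730 measured 0.47 higher in heat-shocked larvae (adjusted p = 0.317, limma) and its groups overlapped.

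The let-7 family, whose members restrain growth genes as tissues mature, was higher through its guide arm. In whole larvae, which hold all tissues, a change in the number of cells of a type and a change in RNA per cell cannot be told apart. Of 18 left-arm probes tested, 10 rose and 0 fell, with a median difference of 0.32 (0.21 to 0.41), beside 3.52% called higher and a median of 0.01 over all tested probes. The values of 16 of the 18 did not overlap between groups, beside 28.2% of all tested probes. let-7e had log2 levels of 12.76, 12.83 and 12.78 in heat-shocked larvae, against 12.48, 12.45 and 12.43 in unshocked larvae, a difference of 0.34 ± 0.05 (SE, adjusted p = 0.0163, limma). let-7h had 11.85, 11.82 and 11.79 in heat-shocked larvae, against 11.52, 11.40 and 11.33 in unshocked larvae, a difference of 0.40 ± 0.06 (adjusted p = 0.0238, limma). In both, the 3 pools of a group lay close together and well apart from the other group.

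The same held for let-7a, whose sequence 5 probes measured. Their differences lay between 0.25 and 0.34, and 4 of them rose. let-7a-2 had levels of 13.95, 13.93 and 13.96 in heat-shocked larvae, against 13.64, 13.66 and 13.59 in unshocked larvae. Probes of let-7b, let-7c, let-7d and let-7g rose by 0.36, 0.33, 0.32 and 0.34. A further probe of each of these sequences measured 0.32, 0.24, 0.25 and 0.21 and was not called. let-7i (0.41, adjusted p = 0.0816, limma) and let-7j (0.23, adjusted p = 0.177, limma) did not pass, nor did let-7f, whose groups overlapped (0.24, adjusted p = 0.195, limma). As let-7 sequences differ by as little as 1 base, probes of the family may read each other's RNA, and the 10 calls are not 10 independent measurements. Of 18 right-arm probes, 9 were tested and 0 were called, with a median of 0.00. With scaling to the 75th percentile, and with quantile normalization over known and predicted probes, 0 let-7 probes were called, while the left-arm median was 0.30 and 0.28. The direction depended on scaling too: without any normalization between arrays, when the median of all probes moved to -0.25, 15 of the 18 were above 0 and let-7h measured -0.035, while the median of the 18 was still 0.29 above that of all probes.

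Of the clustered miR-193 and miR-365, 1 probe each was called higher, on opposite arms. miR-193b right, its guide arm, had levels of 9.60, 9.60 and 9.52 in heat-shocked larvae, against 9.29, 9.07 and 9.09 in unshocked larvae, and rose by 0.42 ± 0.07 (SE, adjusted p = 0.029, limma). Under normexp without dye normalization the difference was 0.15 and was not called. The left arm of miR-193b measured 0.01 and its groups overlapped. miR-193a, which shares the seed ACUGGCC with miR-193b, was measured by 2 right-arm probes, at 0.27 (adjusted p = 0.286, limma) and 0.25 (adjusted p = 0.109, limma), neither of them called.

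Of miR-365, 1 passenger-arm probe rose. miR-365-3 left had levels of 11.92, 11.85 and 11.52 in heat-shocked larvae, against 11.30, 11.07 and 11.20 in unshocked larvae, a difference of 0.58 ± 0.12 (SE, adjusted p = 0.0458, limma). Heat-shocked replicate 3 was the lowest of its group but still above every unshocked pool. The same sequence on the miR-365-2 probe measured 0.47 (adjusted p = 0.0621, limma), and the average of both probes was called (0.52, adjusted p = 0.0499, limma). The left arm of miR-365-1, of another sequence, measured 0.08 with overlapping groups (adjusted p = 0.779, limma). The right arms, which are the guides, measured 0.03 to 0.15 and were not called. Of the 11 probes of miR-193 and miR-365 tested, 2 rose and 0 fell, with a median of 0.15, beside 3.52% called higher over all tested probes. With normexp, with scaling to the 75th percentile and with quantile normalization over known and predicted probes, 0 of them were called.

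The other 3 calls upward were passenger arms. miR-150 right, opposite to the guide known from lymphocytes, had levels of 13.20, 13.12 and 12.91 in heat-shocked larvae, against 12.73, 12.62 and 12.53 in unshocked larvae, a difference of 0.45 ± 0.10 (SE, adjusted p = 0.0462, limma). The groups lay apart, whereas the left arm of miR-150 measured 0.06 and overlapped. miR-219 right, opposite to a guide of oligodendrocytes, rose by 0.37 ± 0.08 (adjusted p = 0.0462, limma) and measured -0.052 without normalization between arrays. miR-128-2 left, opposite to a guide of neurons, rose by 0.33 ± 0.06 (adjusted p = 0.029, limma).

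Of the miR-34 family, miR-34b and miR-34c fell. The left arm of miR-34b, the guide, had levels of 9.09, 8.88 and 9.05 in heat-shocked larvae, against 9.98, 9.78 and 9.91 in unshocked larvae, a difference of -0.88 ± 0.08 (SE, adjusted p = 0.0103, limma), or 1.84-fold lower. Every heat-shocked pool was below every unshocked pool. miR-34c left, which vertebrates encode beside miR-34b, had levels of 9.69, 9.93 and 9.85 in heat-shocked larvae, against 10.55, 10.39 and 10.19 in unshocked larvae, and fell by 0.55 ± 0.11 on the log2 scale (adjusted p = 0.0445, limma). The third member, miR-34 left, had 12.73, 12.95 and 12.87 in heat-shocked larvae, against 13.31, 13.13 and 13.10 in unshocked larvae. These groups did not overlap either, yet the difference of -0.33 did not pass (adjusted p = 0.0763, limma). In all, 2 of the 5 miR-34 probes tested fell and 0 rose, with a median of -0.54, beside 4.19% called lower and a median of 0.01 over all tested probes. That median is the value of miR-34b right, whose groups overlapped (adjusted p = 0.317, limma). This probe was dim, well above background on 1 heat-shocked and 2 unshocked arrays. miR-34c right measured -0.31 (adjusted p = 0.188, limma), and miR-34 right was too dim to be tested. The left arms alone had a median of -0.55. Under normexp without dye normalization miR-34b and miR-34c were still called, at -0.43 and -0.34.

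miR-210, which hypoxia is known to induce, was lower on its guide arm. miR-210 right had levels of 12.08, 12.13 and 12.07 in heat-shocked larvae, against 12.72, 12.88 and 12.59 in unshocked larvae, a difference of -0.64 ± 0.08 (SE, adjusted p = 0.0159, limma). The heat-shocked pools lay close together (SD 0.04) below the unshocked pools, which spread more widely (SD 0.15). The left arm measured -0.13 (adjusted p = 0.678, limma) and its groups overlapped.

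Of the muscle miRNAs, miR-133 fell on its passenger arm, and no probe of its guide was called. miR-133a-1 left had levels of 12.87, 12.85 and 12.80 in heat-shocked larvae, against 13.25, 13.29 and 13.29 in unshocked larvae, a difference of -0.43 ± 0.05 (SE, adjusted p = 0.0103, limma). The miR-133a-2 probe, of the same sequence, measured -0.42. miR-133b left fell by 0.35 and miR-133c left fell by 0.31 on the log2 scale (adjusted p = 0.0262 and 0.0173, limma). All 4 left-arm probes of miR-133 therefore passed. None of them overlapped between groups, as was the case for all 35 calls and for 28.2% of all tested probes. The 4 probes hold 3 sequences that differ by as little as 2 bases. They may read each other's RNA and are not 4 independent measurements. With scaling to the 75th percentile, and with quantile normalization over known and predicted probes, 0 muscle probes were called, while the median of these 4 was -0.37 and -0.43.

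The guide of miR-133, by contrast, showed little difference. Its 4 right-arm probes measured -0.11 to 0.01, with adjusted p between 0.282 and 0.922 (limma). miR-133a-1 right had 13.98, 13.87 and 13.95 in heat-shocked larvae, against 13.96, 14.04 and 13.98 in unshocked larvae, and the values overlapped. Whether the arms differ in this respect was not tested. According to the study's methods miR-133 served as the reference in its PCR assays. The guide arms of miR-1 and miR-206 measured 0.00 to 0.19 and were not called. Over the 20 muscle probes 4 fell and 0 rose, with a median of -0.12, beside 4.19% called lower over all tested probes.

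**Figure D3:**
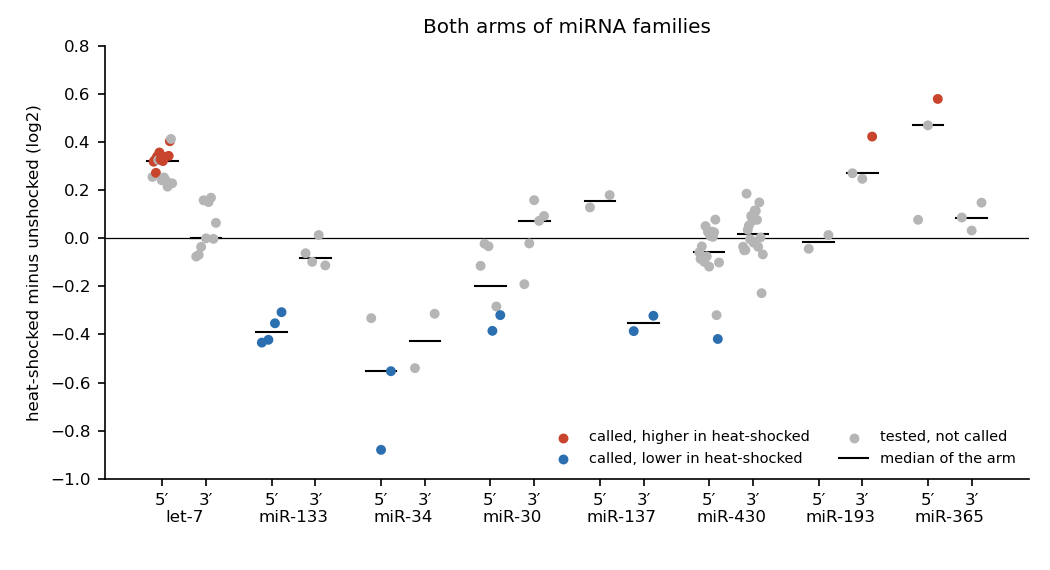
Log2 difference between heat-shocked and unshocked control larvae (vertical axis) for each tested probe of 8 miRNA families, split into left (5′) and right (3′) arm, with a bar at the median of the arm. The left arms of let-7 lie above 0 and those of miR-133, miR-34 and miR-30 below it, while the right arms of let-7 and miR-133 scatter around 0.

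Further guides were lower as well. miR-101b right, known to target a subunit of Polycomb in mammals, had levels of 10.98, 11.12 and 11.04 in heat-shocked larvae, against 11.66, 11.49 and 11.70 in unshocked larvae, and fell by 0.57 ± 0.08 on the log2 scale (SE, adjusted p = 0.0159, limma). Its groups lay apart, and its relative miR-101a measured -0.44 (adjusted p = 0.0763, limma). miR-30d left had levels of 13.04, 13.08 and 13.08 in heat-shocked larvae, against 13.45, 13.45 and 13.47 in unshocked larvae, with a difference of -0.39 ± 0.04 (adjusted p = 0.0103, limma). Its pools lay close together, with an SD of 0.02 in heat-shocked and 0.01 in unshocked larvae. miR-30e-2 left, of the same seed, fell by 0.32 on the log2 scale, while a further probe of its sequence measured -0.28 and was not called. Over 6 left-arm probes of miR-30, which hold 4 sequences, the median was -0.20, with 2 called lower, beside 4.19% of all tested probes. The 5 right-arm probes tested had a median of 0.07 and 0 calls.

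miR-137 right, a guide of the brain, was measured by 2 probes of 1 sequence, at -0.39 and -0.32, and both were called (adjusted p = 0.0458 and 0.0373, limma). The miR-137-1 probe had levels of 14.13, 14.33 and 14.19 in heat-shocked larvae, against 14.72, 14.51 and 14.57 in unshocked larvae, which did not overlap. Its left arm measured 0.13 (adjusted p = 0.293, limma). miR-301b right fell by 0.35 on the log2 scale (adjusted p = 0.0351, limma). Only 1 of the 9 right-arm probes of miR-130, miR-301 and miR-454 measured above 0, with a median of -0.14.

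Among the passenger arms, miR-145 right fell on both of its probes, by 0.46 and 0.52 on the log2 scale (adjusted p = 0.0105 and 0.0285, limma). Its guide belongs to smooth muscle, and the left-arm probes measured -0.18 and -0.23 with overlapping groups. Probe 1 of miR-145 right had 11.33, 11.40 and 11.43 in heat-shocked larvae, against 11.89, 11.85 and 11.79 in unshocked larvae. miR-430c-2 left had 11.37, 11.23 and 11.23 in heat-shocked larvae, against 11.72, 11.70 and 11.67 in unshocked larvae, and fell by 0.42 (adjusted p = 0.0163, limma). A further probe of its sequence measured -0.32 and was not called. Yet over the 35 probes of miR-430 tested the median was 0.00, with 17 above 0. miR-190b right and miR-182 right fell by 0.44 and 0.34 on the log2 scale. Both were dim, and under normexp without dye normalization they measured -0.15 and -0.13 and were not called.

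Among miRNAs named in teleosts, 36 probes were tested, 1 rose (miR-730) and 1 fell, no larger a share than the 7.71% of all tested probes. The call downward was miR-722 right, with levels of 8.95, 9.03 and 8.75 in heat-shocked larvae, against 9.36, 9.23 and 9.34 in unshocked larvae, a difference of -0.40 ± 0.09 (SE, adjusted p = 0.0462, limma). A further probe of that sequence measured -0.50 (adjusted p = 0.0639, limma). miR-725 right had the second largest difference upward, 0.72, with 13.80, 14.16 and 14.17 in heat-shocked larvae, against 13.02, 13.53 and 13.42 in unshocked larvae. Although its groups did not overlap, its spread was wide and it did not pass (adjusted p = 0.0613, limma).

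Of miR-193a, miR-146a, miR-146b-1 and miR-21, which the study links to Ras, no probe was called between these 2 sets of controls. miR-146a left, a guide known from the NF-kB pathway, had levels of 10.19, 10.66 and 10.44 in heat-shocked larvae, against 10.22, 10.18 and 10.41 in unshocked larvae, a difference of 0.16 (adjusted p = 0.517, limma). miR-146b-1 left measured 0.05 and the 2 probes of miR-21 left, an abundant guide raised in many tumors, measured 0.10 and 0.14, all with overlapping groups. The right arm of miR-146b-1 measured -0.01, also with overlapping groups. The right arms of miR-146a and miR-21 and the left arm of miR-193a-1 were too dim to be tested. The right arms of miR-193a measured 0.27 and 0.25, and its other left-arm probe -0.04, none of them called.

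Lists of tissue miRNAs are to be read beside the 3.52% called higher, the 4.19% called lower and the median of 0.01 over all tested probes. The miRNAs that mark brain and neurons gave 2 calls upward and 2 downward among 73 probes, near that share, with a median of 0.02. Those of red blood cells (miR-144 and miR-451) gave 0 calls among 4 probes and a median of 0.37, where miR-451 left measured 0.30 (adjusted p = 0.0958, limma). The other left arm, of miR-144, measured -0.003, and the right arms 0.43 and 0.53. The highest of these, miR-451 right, was not well above background on any unshocked array. Those of white blood cells gave 1 call upward among 6 and a median of 0.04. Neither of the 2 probes of miR-122, the marker of liver, was called. The 5 probes of gut (median -0.38), the 12 of skin and epithelia (0.02), the 10 of cartilage and mesenchyme (-0.05), the 7 of pancreas (-0.05) and the 6 of pigment cells and eye (miR-204, 0.01) gave 0 calls. Those of vessels and smooth muscle gave 2 calls downward among 10, both of miR-145 right, and those of hair cells 1 among 6. The part of tissue composition in the calls was not tested.

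The called sequences shared few features that the test did not use. Their GC content had a median of 40.9% in those higher and 40.9% in those lower in heat-shocked larvae, against 45.5% over all tested probes. Of the 16 higher probes 13 were left arms, which includes the 10 let-7 probes, and of the 19 lower ones 9 were left arms, beside 224 left and 230 right arms among all tested probes. Median levels were 12.9 in the higher probes, 11.9 in the lower ones and 12.1 in all tested probes on the log2 scale. Both sets of called probes held dim and bright ones, at 7.68 to 13.9 in the higher and 7.89 to 14.4 in the lower ones. Neither reached the brightest levels, as all tested probes ran from 5.88 to 18.6.

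The controls of the kita:HRAS line (kita:Ras) at 3 dpf were also AB wild-type larvae without heat shock, measured on 2 other slides. Their values are given without a test, since slide and control set coincide. On a scale set over these 10 arrays, miR-730 left had 7.97, 8.35 and 8.04 in heat-shocked larvae, against 7.15, 7.24 and 7.26 in the unshocked larvae and 8.34 to 8.74 in the 4 kita:Ras controls. miR-34b left had 9.03, 8.80 and 8.99 in heat-shocked larvae, against 9.92, 9.66 and 9.81 in the unshocked larvae and 8.85 to 9.07 in the kita:Ras controls. miR-730 left was well above background on 3 of the 4 kita:Ras control arrays. The kita:Ras controls lay near or above the heat-shocked larvae for miR-730 and near them for miR-34b.

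For some others they lay nearer the unshocked ones of the same slide or beyond them. miR-210 right had 11.82, 11.87 and 11.80 in heat-shocked larvae, against 12.49, 12.67 and 12.36 in the unshocked larvae and 12.25 to 12.60 in the kita:Ras controls. miR-133a-1 left had 12.65, 12.63 and 12.57 in heat-shocked larvae, against 13.03, 13.06 and 13.06 in the unshocked larvae and 13.57 to 13.73 in the kita:Ras controls. let-7e left had 12.53, 12.60 and 12.56 in heat-shocked larvae, against 12.25, 12.21 and 12.19 in the unshocked larvae and 11.93 to 12.36 in the kita:Ras controls. Further let-7 probes did not all follow. let-7g-2 left had 13.03 to 13.15 in heat-shocked larvae, 12.71 to 12.85 in the unshocked larvae and 12.67 to 13.26 in the kita:Ras controls. In the same order, let-7h left had 11.51 to 11.57, 11.13 to 11.28 and 10.90 to 11.51. Probe 2 of let-7b left had 12.94 to 12.96, 12.49 to 12.65 and 12.04 to 12.56. Some miRNAs differed far more between the slides than between heat-shocked and unshocked larvae, such as miR-101b right. It had 13.2 and 13.3 on 1 slide of kita:Ras controls and 10.2 and 10.6 on the other.

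**Figure D4:**
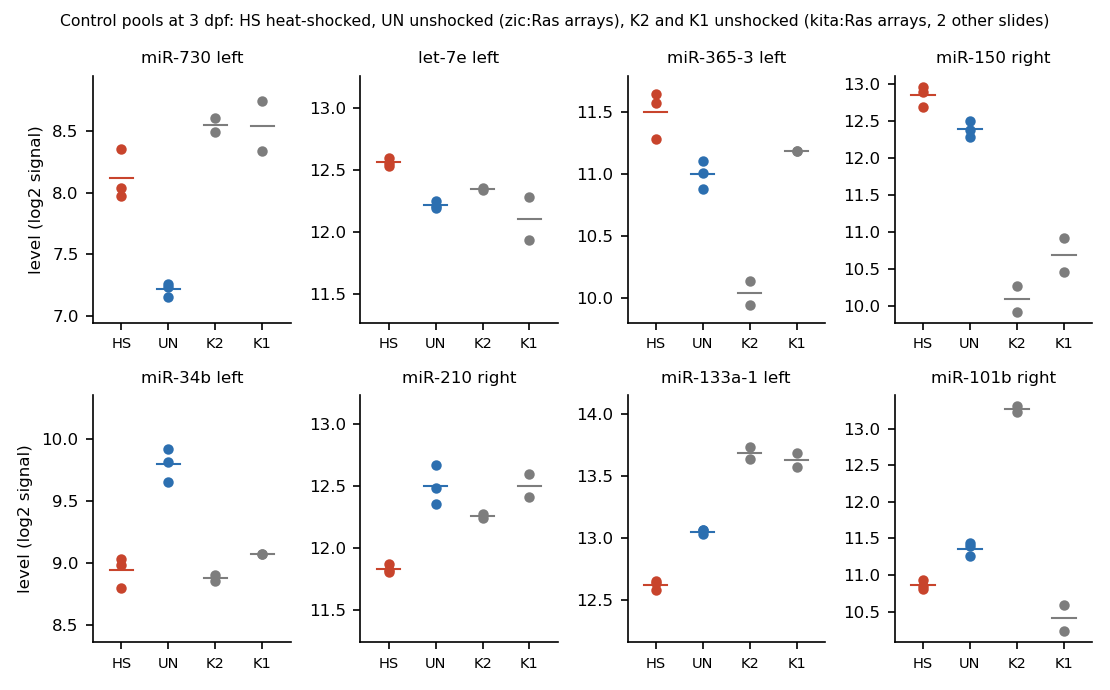
Log2 level on each array (vertical axis, scaled over 10 arrays) of 8 called probes in heat-shocked larvae (HS), unshocked larvae of the same slide (UN) and unshocked kita:Ras controls on 2 other slides (K2, K1), all at 3 dpf, with a line at each mean. The kita:Ras controls lie near the heat-shocked larvae for miR-34b, near the unshocked ones for let-7e and miR-210, and apart from both for miR-150 and miR-133a-1.

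Older larvae gave a view of how the same probes move with age. The control larvae of kita:Ras at 7 dpf and at 3 dpf shared a slide, with 3 and 2 pools, and are compared without a test. The called left-arm probes of let-7 were 0.13 to 0.72 higher at 7 than at 3 dpf, and they were also higher in heat-shocked larvae. miR-365-3 left (1.89), miR-150 right (1.79), miR-193b right (1.32) and miR-730 left (1.01) were also higher at 7 dpf, whereas miR-219 right (-0.33) was lower. Of the miRNAs lower in heat-shocked larvae, miR-133a-1 left (-1.57) and miR-210 right (-1.15) were lower at 7 dpf. By contrast, miR-34b left (0.67), miR-101b right (1.50) and miR-30d left (0.43) were higher at 7 dpf. In each of these probes the 7 and 3 dpf values did not overlap. That held for uncalled probes too, such as miR-146b-1 left (2.24) and miR-365-2 right (1.27), so it is not particular to the called ones. The share without overlap between ages over all tested probes is not given here, so non-overlap does not set the named probes apart. Over the tested right arms, the median difference between 7 and 3 dpf was -4.08 for miR-430 and -1.65 for let-7, beside 0.03 over all tested probes. In the heat shock comparison these right arms had medians of 0.02 and 0.00. The larvae of the age comparison share no array with the heat shock comparison.

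The green channel of the same 6 arrays held Ras larvae, of which HS-Ras larvae had the heat shock and zic:Ras larvae had not, so that the transgenes differ too. miR-730 left differed there by 0.97 (8.04, 8.41 and 8.19 in HS-Ras larvae, against 7.44, 6.94 and 7.33 in zic:Ras larvae), beside 1.06 in the controls. miR-34b left differed by -0.40, beside -0.88 in the controls, and miR-133a-1 left by -0.22, beside -0.43. The called let-7 probes differed by 0.10 to 0.22. miR-210 right ran the other way, at 0.65 (12.67, 12.83 and 12.65 in HS-Ras larvae, against 12.02, 12.09 and 12.09 in zic:Ras larvae), beside -0.64 in the controls. Opposite signs were also seen for miR-430c-2 left (0.39), miR-365-3 left (-0.31), miR-150 right (-0.33) and miR-128-2 left (-0.29). Other called probes differed little there. Examples were probe 1 of miR-145 right (0.01, beside -0.46 in the controls) and miR-190b right (0.003, beside -0.44). Further ones were miR-193b right (-0.02, beside 0.42) and miR-137-1 right (-0.07, beside -0.39). Both channels of an array pass through the same dye normalization, and the part this has in either value was not tested.

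A further 7058 probes covered hairpins predicted in the genome. For these, the arrays were quantile-normalized over known and predicted probes together. Under that setting 0 of the 35 calls among known probes remained, so the shares called are not on the same scale. Of the predicted probes, 1233 were tested and 1 was called (0.0811%), with 177 at an unadjusted p below 0.05. It detects the left arm of the predicted hairpin sblock189521_C3 and is shown because its difference exceeded that of every known miRNA.
sblock189521_C3 left arm: uUAGAGUGcuagguggaggugc
Its log2 levels were 10.02, 9.57 and 9.58 in heat-shocked larvae, against 14.04, 14.41 and 15.28 in unshocked larvae. The groups were far apart, with a difference of -4.85 ± 0.34 (SE, adjusted p = 0.0064, limma), or 28.9-fold lower. In the green channel it had 13.59, 12.96 and 12.63 in HS-Ras larvae, against 11.18, 11.15 and 10.44 in zic:Ras larvae, so the order was the opposite one, as for miR-210 right. Of the predicted probes tested, 66 differed by more than 1 on the log2 scale, 11 of them higher and 55 lower in heat-shocked larvae. Many of these probes detect the same sequence as others among them, so that these are not counts of separate sequences. Whether any of them is a miRNA is not known from the files.

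**Figure D5:**
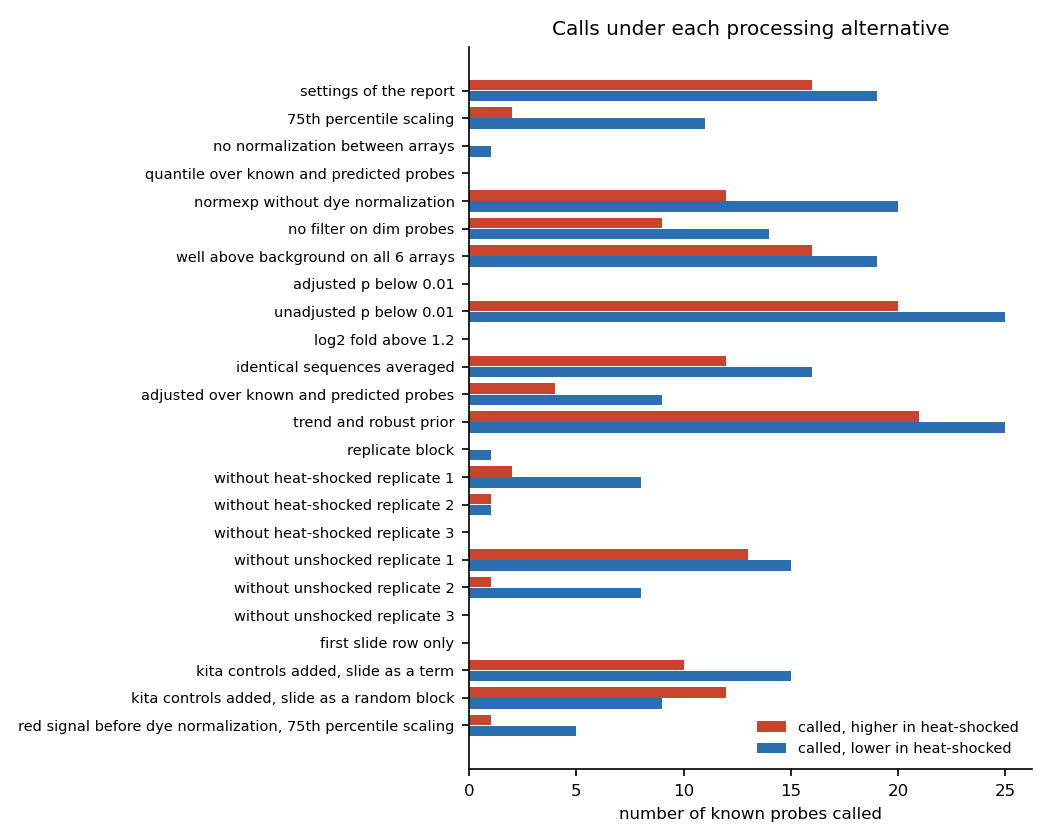
Number of known probes called (horizontal axis) under the settings used here and under each processing alternative, with those higher in heat-shocked larvae above and those lower below in each pair of bars. The counts run from 0 under several alternatives to 21 higher and 25 lower with a trended and robust prior.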

How the data were processed

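The study hybridized 1 µg of total RNA per channel to custom Agilent arrays whose probes of 60 bases hold 2 copies of an antisense sequence of 22 bases, spotted in duplicate. The red intensity used here was deposited per array, after the authors' Agilent Feature Extraction had subtracted background and normalized the dyes (10.7.3.1 per the file headers, while the submitters' processing notes give 9.5 and 9.5.3.1). Feature Extraction marked 0 spots of known probes as outliers and 0 as saturated. Duplicate spots were averaged as log2, and the 6 arrays were quantile-normalized over known probes. limma 3.58.1 in R 4.3.3 tested heat-shocked minus unshocked larvae with 3 arrays each and no covariate, with Benjamini-Hochberg adjustment over the known probes tested. Predicted hairpins were tested separately in the same way, except that the arrays were quantile-normalized over known and predicted probes together. The number of arrays limits the precision.

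Named miRNAs were, per direction, the 10 called probes with the largest differences (1 per sequence), all probes of miR-21, miR-34, miR-133, miR-146, miR-150, miR-193, miR-210 and miR-365, and up to 4 members of each list. Other probes and the predicted hairpin were named after their values were seen. Members and lists were chosen with earlier results of these data known. Alternatives covered scaling, background, filter, threshold, prior, identical probes, single arrays, slide row and added control arrays. For the kita:Ras controls and for larvae at 7 dpf, arrays were scaled together with those they were compared with. Arrays at 7 dpf and those of other lines served no other comparison. Figures were drawn with matplotlib 3.10.9.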

Additional observations from a re-analysis of the deposited data

How the results depend on the processing

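The number of calls was fragile. The 35 called probes did not overlap between groups, so leaving out arrays could hardly turn a direction, and other thresholds, priors and the block leave the differences as they are. Under the alternatives that change the values themselves, 2 of the 35, let-7h left (-0.035) and miR-219 right (-0.052), changed sign without normalization between arrays, which moved the median of all probes to -0.25. Against 16 higher and 19 lower, scaling to the 75th percentile called 2 and 11, no normalization 0 and 1, and quantile normalization over known and predicted probes 0 and 0 (69 with an unadjusted p below 0.05). Without a filter on dim probes there were 9 higher and 14 lower, and with p-values adjusted over known and predicted probes 4 higher and 9 lower. At an adjusted p below 0.01, and separately with a log2 fold above 1.2, there were 0 and 0 (115 with an unadjusted p below 0.05). The first slide row alone, with 1 unshocked array assumed to vary like the heat-shocked ones, gave 0 and 0 (77). With the kita:Ras controls added there were 10 higher and 15 lower with slide as a term, and 12 higher and 9 lower with slide as a random block. The red signal before dye normalization, scaled to the 75th percentile and chosen after seeing the data, gave 1 and 5. Leaving out each array in turn gave 0 to 13 higher and 0 to 15 lower, with 0 of both without heat-shocked replicate 3 or unshocked replicate 3.

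The replicate number as a block left 0 higher and 1 lower, miR-34b left (95 with an unadjusted p below 0.05). Deviations of arrays with the same number correlated at -0.354, -0.145 and 0.0856, and those of arrays with different numbers at -0.329 to 0.344. These few values cannot show whether samples of the same number share more than the number.

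Some sizes depended on the signal used. Before dye normalization, with normexp and its offset of 50, miR-730 left measured 0.25 in place of 1.06 and miR-34b left -0.43 in place of -0.88. The cause was not tested.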
